A study of Mus musculus with 12 samples.

Results

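The crystallins described here are 10 genes of the deposited table of 53028 mouse genes, taken by symbol: the alpha crystallins Cryaa and Cryab, the beta crystallins Cryba1, Cryba2, Cryba4, Crybb1, Crybb2 and Crybb3, and the gamma crystallins Crygs and Crygb. Crystallins are the soluble proteins that fill the fibre cells of the eye lens at high concentration and keep it clear and refractive. The alpha crystallins belong to the small heat shock proteins and act as chaperones that hold unfolding proteins in solution, and Cryab is also made in glia, muscle and other tissues. The beta and gamma crystallins share a separate fold built from Greek key motifs, and their RNAs are found in the retina at far lower levels than in the lens, which lies against the same eye cup when a retina is dissected.

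Poly(A) RNA of whole retina was sequenced in 12 libraries, with 3 in each of 4 groups: Pilrb1/2 -/- (knockout) retinas at 12 months, Pilrb1/2+/+ (wild type) retinas at 12 months, knockout retinas at postnatal day 28 (P28) and wild-type retinas at P28. The deletion was made with CRISPR in C57BL/6J zygotes and carriers were crossed to C57BL/6J. The series text names Pilra beside Pilrb1/2 as deleted, whereas the sample labels name Pilrb1/2 alone. Nothing in the labels ties a library to an animal, and p-values therefore measure the spread between libraries, which may be technical.

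Libraries are named by group and replicate number. Gene levels are in CPM, that is, reads per 1000000 reads of a library after TMM scaling. The depth, estimated from the commonest smallest step in each library's values, was about 14700000 to 25900000 reads, and 3 reads corresponded to 0.111 to 0.192 CPM. Pilrb1 was above 0 only in 12-month knockout 2 (0.052 CPM) and Pilrb2 only in 12-month wild type 1 (0.0436 CPM), so these genes could not check the labels, while Pilra was above 0 in all 12 libraries. Xist exceeded 100 CPM in 2 of the 3 P28 knockout libraries (2 and 3) and in libraries 1 and 2 of the 12-month wild-type group, so sex was unequally spread over the groups.

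The 10 genes lie on 6 chromosomes. Cryba4 and Crybb1 sit head to head on chromosome 5 with 3.3 kb between them, and Crybb2 and Crybb3 lie 5.72 kb apart on the same chromosome, so that the 4 genes form 2 local pairs. The proximal promoters of 4 members are shown as examples. The members varied with Cryba1 across libraries, Crygb least closely, and whether these promoters have a part in it was not tested. Coordinates and sequences are those of the RefSeq promoter table on GRCm38.p6, 5′ to 3′ on the gene's strand, each window ending upstream of every annotated exon of its gene. Capitals mark TGCTGA, the core to which Maf factors of the lens bind, and the TATA-like hexamers TATAAA and TATATA.
Cryba1, chr11:77725294-77725413, minus strand: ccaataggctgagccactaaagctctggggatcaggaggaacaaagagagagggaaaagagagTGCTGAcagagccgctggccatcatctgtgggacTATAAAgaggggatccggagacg
Cryba4, chr5:112252589-112252708, minus strand: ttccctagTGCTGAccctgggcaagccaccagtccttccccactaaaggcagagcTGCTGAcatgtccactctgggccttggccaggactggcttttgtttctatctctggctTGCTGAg
Crybb1, chr5:112255695-112255814, plus strand: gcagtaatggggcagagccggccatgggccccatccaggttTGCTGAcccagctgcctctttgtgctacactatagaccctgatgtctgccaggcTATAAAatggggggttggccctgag
Crygb, chr1:65082291-65082410, minus strand: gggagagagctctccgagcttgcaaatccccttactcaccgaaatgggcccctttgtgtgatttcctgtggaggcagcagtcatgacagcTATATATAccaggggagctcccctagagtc

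RefSeq windows of 300 bases (250 before to 50 after the start) were matched for 9 of the 10 members. TGCTGA, searched on both strands, was present in 7 of these 9 windows, all but those of Crybb2 and Crygb, against 19.5% of all 32851 windows. It began 57 bases before the start in Cryba1 and 84 bases before it in Crybb1, and Cryba4 held it at 182, 135 and 77 bases. TATAAA or TATATA on the gene's strand was present in 6 of the 9, against 12.5% of all windows. The hexamer began 23 bases before the start in Cryba1, 25 in Crygs, 29 in Cryaa, 30 in Crybb1 and 30 in Crygb. In Crygb overlapping copies form the run TATATATA. In Cryba2 the hexamer began only 3 bases before the start. The heat shock element core GAANNTTC was in none of the 9, against 7.86% of all windows. These matches describe letters in the windows and were not tested as binding sites.

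Cryba1, a beta crystallin with an acidic chain and the most abundant member over the libraries as a whole, was expressed in CPM at 20.2, 360.2 and 5.97 in 12-month knockout libraries 1 to 3, against 3.28, 10.1 and 18.2 in 12-month wild-type libraries. At P28 it had 67.6, 2721 and 21.8 CPM in knockout libraries, against 6.07, 346.4 and 909.4 CPM in wild-type libraries. The groups overlapped at each age, since 1 knockout library at 12 months and 1 knockout and 2 wild-type libraries at P28 carried most of the RNA. Between the lowest and the highest library Cryba1 spanned 830-fold.

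The alpha crystallin Cryaa, which in the adult is largely restricted to the lens and is low in the retina, had 12.2, 162.8 and 4.31 CPM in 12-month knockout libraries, against 4.06, 12.2 and 18.8 CPM in 12-month wild-type libraries. At P28 it had 27.6, 1402 and 7.02 CPM in knockout libraries, against 3.64, 147.2 and 570.8 CPM in wild-type libraries. The same libraries were high as for Cryba1. Cryab, the more widely expressed alpha crystallin, had 9.61, 112.8 and 7.93 CPM in 12-month knockout libraries, against 14.6, 15.7 and 17.7 CPM in 12-month wild-type libraries. At P28 it had 18.7, 648.0 and 7.95 CPM in knockout libraries, against 13.7, 63.4 and 344.3 CPM in wild-type libraries. Cryab varied least of the 10 members, by 81.7-fold over the 12 libraries, and in the libraries low in crystallins it stayed between 7.93 and 18.7 CPM.

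The other beta crystallins were scarcer than Cryba1. Crybb2, a basic beta crystallin that is prominent in the mature lens, had 4.29, 60.4 and 1.84 CPM in 12-month knockout libraries, against 1.52, 3.67 and 8.32 CPM in 12-month wild-type libraries. At P28 it had 4.86, 229.1 and 1.54 CPM in knockout libraries, against 0.563, 34.1 and 96.3 CPM in wild-type libraries. Cryba2, Cryba4, Crybb1 and Crybb3 reached 142.4, 48.8, 34.6 and 48.1 CPM in P28 knockout 2, and their medians over the 12 libraries were 1.64, 0.636, 0.203 and 0.59 CPM. Their levels in the low libraries therefore rest on few reads; Crybb1 corresponded to about 1.01 reads in 12-month knockout 1 and 547.4 reads in P28 knockout 2.

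The gamma crystallins divided. Crygs, which is evolutionarily set apart from the other gammas and continues to be made in the adult lens, had 2.91, 52.7 and 1.17 CPM in 12-month knockout libraries, against 0.731, 2.95 and 4.87 CPM in 12-month wild-type libraries. At P28 it had 9.59, 353.7 and 2.17 CPM in knockout libraries, against 0.675, 58.6 and 117.8 CPM in wild-type libraries. Crygs thus shared its high libraries with Cryba1. Crygb, a member of the gamma cluster that is made in fibre cells of the embryonic and young lens, had 0.126, 0.106 and 0.0589 CPM in 12-month knockout libraries, against 17.7, 32.0 and 4.62 CPM in P28 knockout libraries. In wild-type retinas it had 0.0853, 0.172 and 0.0361 CPM at 12 months, against 0.795, 62.9 and 60.6 CPM at P28. Every 12-month library lay below every P28 library, and the 12-month values correspond to 0.976 to 3.91 reads, at or near the 3-read floor.

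**Figure D1:**
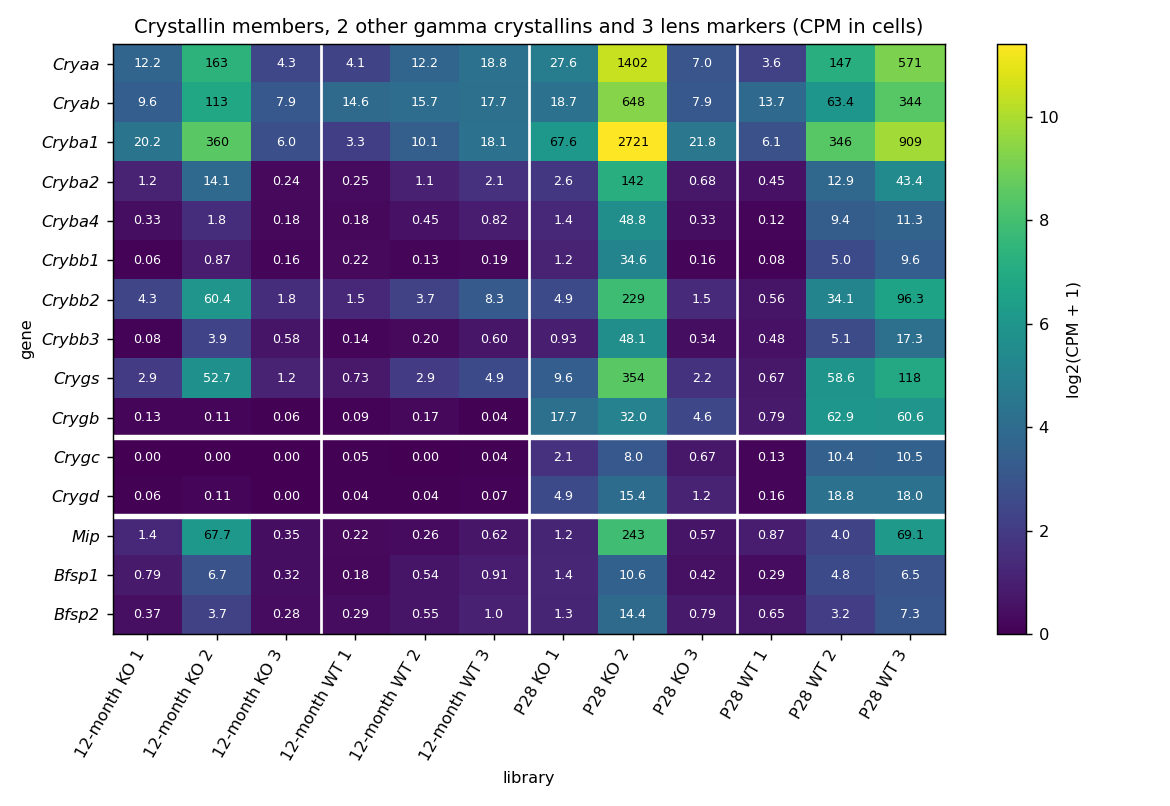
Levels of the 10 members, of the gamma crystallins Crygc and Crygd and of 3 lens markers (rows) in the 12 libraries (columns); the colour gives log2(CPM + 1) and each cell prints the CPM. P28 knockout 2, P28 wild type 3, P28 wild type 2 and 12-month knockout 2 are high in nearly all crystallins, whereas Crygb is below 0.2 CPM in all 6 libraries at 12 months.

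Compared per length, as RPKM summed over a gene's transcripts, the order of the members changed with age. Cryba1 had the highest median RPKM in 12-month knockout (25.6), P28 knockout (85.2) and P28 wild-type retinas (438.6), and Cryab in 12-month wild-type retinas (19.2, with Cryba1 at 12.9). Crygb ranked last of 10 in 12-month knockout retinas (median 0.173 RPKM) and in 12-month wild-type retinas (0.135 RPKM), whereas its median was the second highest in P28 knockout (27.7 RPKM) and the third highest in P28 wild-type retinas (98.0 RPKM). With ranges of this width neighbouring members overlapped within most groups, so that only widely separated ranks are distinct.

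The knockout comparison asks whether loss of Pilrb1/2 changed these RNAs. No member passed at either age. All 10 members were among the 16486 genes tested with limma on log2(CPM + 1). At P28 limma called 0 of 10 members at an adjusted p under 0.05, against 1.49% of all tested genes, with 0 members at an unadjusted p under 0.05. The log2 differences at P28 lay between -0.50 (Cryab) and 0.31 (Cryba1), with a median of -0.05, and their standard errors of 1.03 to 1.96 exceeded them. No member had groups that did not overlap at P28, against 23.8% of tested genes.

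At 12 months limma also called 0 of 10 members in knockout against wild-type retinas, against 39.6% of all tested genes, with 0 at an unadjusted p under 0.05. All 10 log2 differences were above 0, with a median of 0.72 against -0.03 over all genes, but the members share their libraries and 12-month knockout 2 was the highest library of that age for 9 of them. For Cryba1 the difference was 1.96 ± 1.96 (SE), with a limma adjusted p of 0.444. For Cryab it was 0.38 ± 1.46 (adjusted p = 0.853), and without 12-month knockout 2 it was -0.80. No member had groups that did not overlap, against 59.1% of tested genes. The difference of the knockout effect between ages was called by limma for 0 of 10 members, against 0.176% of all tested genes, with standard errors of 1.46 to 2.77.

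Between ages, Crygb and Crybb1 reached the filter of 1 CPM in 3 libraries through P28 libraries alone. Cryba4 and Crybb3 also needed P28 libraries, since at 12 months only 12-month knockout 2 reached 1 CPM (1.83 and 3.95 CPM). Each of these members was thus tested because of the age at which it is high. Their age differences are given as a description and not as support for a change. In wild-type retinas limma called 1 of 10 members between 12 months and P28, against 5.4% of all tested genes, and it was lower, as were 1.75% of them. In knockout retinas it also called 1 of 10, against 27.2% of all tested genes, again lower, as were 13.9%. Each share of members rests on 1 call among 10 genes that share their libraries, and was not tested against that of all genes. Both calls were Crygb, whose log2(CPM + 1) difference was -4.13 ± 1.05 (SE) in wild-type retinas (limma adjusted p = 0.0388) and -3.79 ± 1.05 in knockout retinas (adjusted p = 0.0198). Neither was called with no filter on low values (adjusted p = 0.126 and 0.068) or with a pseudocount of 5 (0.0672 and 0.0631). It was also the only member without overlap in wild-type retinas (against 34.9% of tested genes) and in knockout retinas (against 36%). Because the 12-month values are a few reads, these differences depend on the pseudocount of 1 and no fold is given.

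The Crygb call also depended on single libraries. In wild-type retinas it was lost without 12-month knockout 1 or 3 (adjusted p = 0.0588 and 0.0528), without 12-month wild type 1, 2 or 3 (0.117, 0.114 and 0.121), without P28 knockout 1 (0.0543) and without P28 wild type 2 or 3 (0.141 and 0.169). In knockout retinas it was lost without 12-month knockout 2 (0.0553) and without P28 knockout 1 or 2 (0.0625 each). Its log2 difference remained below -3.2 in all of these fits.

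The other 9 members were lower at 12 months as well, by -1.79 to -3.75 in wild-type and by -0.63 to -2.11 in knockout retinas on the log2 scale, and none of these differences passed. Their adjusted p in wild-type retinas ranged from 0.317 for Cryba1 to 0.596 for Crybb2. Without the libraries P28 knockout 2 and P28 wild type 3, the age difference of Crybb2 in knockout retinas turned to 1.34 (limma adjusted p = 0.499) and that of Cryab to 0.73 (adjusted p = 0.598). In bulk RNA, fewer cells of a type and less RNA per cell cannot be told apart.

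The remaining gamma crystallins of the lens cluster, together with Crygn, were described beside Crygb. In knockout retinas their summed level was 0.105 to 0.477 CPM at 12 months, against 3.04 to 30.2 CPM at P28. In wild-type retinas the sum was 0.118 to 0.36 CPM at 12 months, against 0.392 to 37.1 CPM at P28. Of these 6 genes 4 were tested (Cryga, Crygc, Crygd and Cryge), and each reached the filter through P28 libraries alone, as Crygb did. Limma called none of them between ages, against 5.4% of all tested genes in wild-type and 27.2% in knockout retinas. Crygd, the most abundant of them, had 15.4 CPM in P28 knockout 2, 18.8 in P28 wild type 2 and 18.0 in P28 wild type 3, and at most 0.106 CPM at 12 months. Reads of the cluster can be split wrongly: 31.6% of the 31-base words in Crygb transcripts also occur in other genes, among them Cryga, Crygc, Crygd, Cryge and Crygf, whereas Crygs, Crybb1, Crybb2 and Cryba4 share none with another gene.

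Within each library, alpha members were then set against beta and gamma members by summed RPKM. The ratio of alpha to beta plus gamma was 0.579, 0.416 and 1.03 in 12-month knockout libraries, against 2.57, 1.21 and 0.817 in 12-month wild-type libraries. At P28 it was 0.328, 0.417 and 0.373 in knockout libraries, against 1.7, 0.285 and 0.545 in wild-type libraries. The groups overlapped at each age. The libraries with ratios above 1 were 12-month wild type 1 and 2, P28 wild type 1 and 12-month knockout 3, whose members summed to 25.1, 46.7, 26.6 and 22.4 CPM. P28 knockout 3, with a similar sum of 46.6 CPM, had a ratio of 0.373. The 4 libraries with the highest sums (P28 knockout 2 with 5660 CPM, P28 wild type 3 with 2181, 12-month knockout 2 with 769.6 and P28 wild type 2 with 745.0 CPM) had ratios of 0.417, 0.545, 0.416 and 0.285.

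The alpha members differed from each other in this respect. Per Cryaa RPKM, Cryab was 5.77 in P28 wild type 1 and 5.55 in 12-month wild type 1, and 0.657 to 1.0 in the 4 libraries with the highest sums. At 12 months Cryaa per Cryba1 was 0.285 to 0.461 with the knockout, against 0.654 to 0.771 in the wild type, and at P28 it was 0.206 to 0.323 with the knockout, against 0.271 to 0.399 in the wild type. Among its transcripts, Cryab-205 varied with Cryba1, between 5.71 and 661.5 RPKM, whereas Cryab-201 stayed between 1.22 and 5.08 RPKM in all 12 libraries. In P28 knockout 2 the 2 transcripts had 661.5 and 5.08 RPKM, and in 12-month wild type 1 they had 11.1 and 3.58 RPKM.

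**Figure D2:**
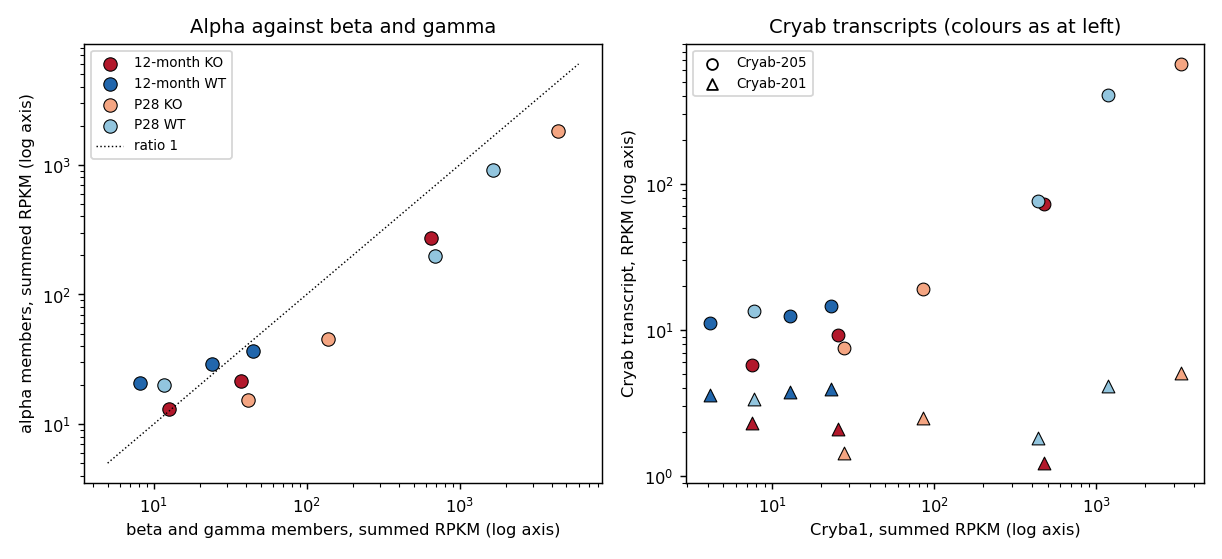
Left, summed RPKM of the alpha members against that of the beta and gamma members, 1 point per library, with the line of equal values; right, Cryab-205 (circles) and Cryab-201 (triangles) against the summed RPKM of Cryba1, all on log axes. The 4 libraries lowest in beta and gamma members lie above the line, and Cryab-201 stays between 1.22 and 5.08 RPKM while Cryab-205 spans 5.71 to 661.5 RPKM.

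The composition of the beta and gamma members differed between ages as well. Relative to Cryba1, Crybb2 had 0.23, 0.179 and 0.331 of its RPKM in 12-month knockout libraries and 0.498, 0.393 and 0.499 in 12-month wild-type libraries. At P28 the ratio was 0.0777, 0.0907 and 0.0764 in knockout libraries and 0.0998, 0.107 and 0.114 in wild-type libraries. All 6 libraries at 12 months lay above all 6 at P28, although Cryba1 itself varied widely within each age. At each age the 3 knockout libraries lay below the 3 wild-type libraries. This order was not particular to Crybb2 at 12 months. Cryaa, Cryba2, Cryba4 and Crygs per Cryba1 were also lower in every knockout library of that age than in every wild-type library. For Cryba2 the ratio was 0.0423 to 0.0636 with the knockout, against 0.0823 to 0.123 in the wild type. The other members overlapped between genotypes, as all but Crybb2 did at P28. All these ratios share Cryba1 as their denominator. The ratio of Crybb2 to Cryba1 was picked after its values were seen and is given without a test.

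Crygb went the other way relative to Cryba1. In knockout retinas its RPKM was 0.000364 to 0.0122 of that of Cryba1 at 12 months, against 0.0147 to 0.325 at P28. In wild-type retinas the ratio was 0.00249 to 0.0325 at 12 months, against 0.0827 to 0.226 at P28. The lowest P28 value belonged to P28 knockout 2, the library with the most crystallin RNA, and it lay below the highest values at 12 months. In 12-month knockout 2, with 475.2 RPKM of Cryba1, Crygb was at 0.173 RPKM, whereas P28 wild type 2, with 438.6 RPKM of Cryba1, had 99.2 RPKM of Crygb. Crygs per Cryba1 was steadier, at 0.13 to 0.177 at 12 months, against 0.0904 to 0.129 at P28, in knockout retinas, and at 0.2 to 0.263 at 12 months, against 0.1 to 0.153 at P28, in wild-type retinas.

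**Figure D3:**
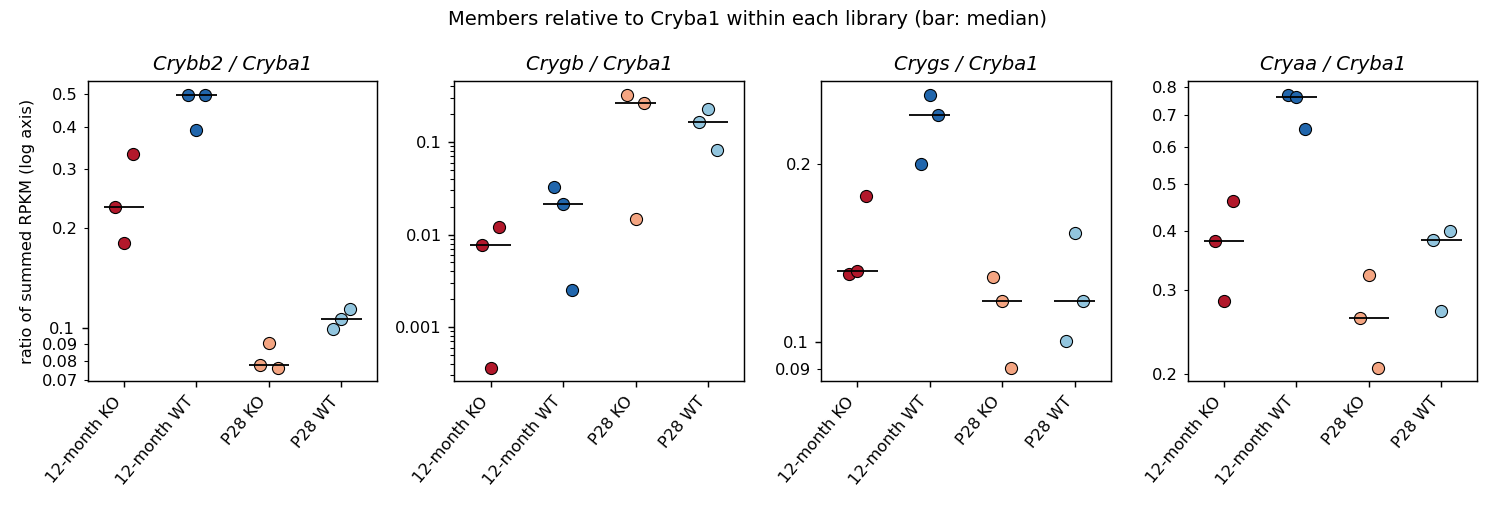
RPKM of Crybb2, Crygb, Crygs and Cryaa divided by that of Cryba1 in each library (log axes), by group, with a bar at the median of 3 libraries. Crybb2 per Cryba1 is 0.179 to 0.499 at 12 months and 0.0764 to 0.114 at P28; Crygb per Cryba1 is at most 0.0325 at 12 months.

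Across the 12 libraries the log2(CPM + 1) of Cryba1 was related to that of each of the other 9 members, in a family of 9 correlations. The permutations shuffled all 12 libraries regardless of group, so their p-values do not separate differences between groups from variation within them. Crygs had the highest Pearson coefficient (r = 0.99, permutation p = 1e-05, adjusted 4.5e-05, the raw value being the smallest that 100000 permutations can give; Spearman rho = 0.91, permutation p = 0.00017, adjusted 0.000382). By Spearman rho, Cryba2 (0.94) and Cryaa (0.93) were above Crygs and Cryba4 was equal to it (permutation p = 6e-05, 9e-05 and 0.00017, adjusted 0.000382 each). Without P28 knockout 2 and P28 wild type 3, the libraries farthest from the median, the r of Crygs was 0.98. Crygb had the lowest of both coefficients (r = 0.76, permutation p = 0.0043, adjusted 0.0043; rho = 0.68, permutation p = 0.0179, adjusted 0.0179), with r = 0.59 without those libraries. Within the 6 libraries at P28 r was 0.88 for Crygb, and within the 6 at 12 months, where its values are a few reads, 0.13. The other 7 members had r of 0.90 to 0.98.

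The non-member genes with the pattern most like the summed beta and gamma members, over 12 libraries on the same scale, were Bfsp1 (r = 0.98) and Bfsp2 (r = 0.97), which encode the beaded filament proteins of lens fibre cells. Cd24a, Pygl, Mip, Col6a3, Lctl, Lgsn, Adamts18 and Nid1 followed, with r of 0.92 to 0.87. For Cryaa the closest 5 were Bfsp1, Bfsp2, Pygl, Mip and Col6a3, and for Cryab they were Bfsp2, Pygl, Wnt7b, Mip and Bfsp1. Lens genes thus stood first in each of these rankings.

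The lens markers other than crystallins moved with the members. Over 12 such genes the sum at 12 months was 7.55 to 222 CPM with the knockout, against 5.97 to 9.16 CPM in the wild type, and at P28 it was 7.45 to 739 CPM with the knockout, against 6.78 to 351 CPM in the wild type. Of the 12 genes, 8 were tested and limma called 0 in each of the 4 comparisons of groups and 0 for the difference between ages; no marker was at 0 in all libraries of a group. With this sum as a covariate, Crygb stayed called between ages in knockout retinas (-3.51, limma adjusted p = 0.013) and was no longer called in wild-type retinas (-3.25, adjusted p = 0.067). Since Crygb passed the filter through P28 libraries alone, this call too is a description and not support for a change. With the same covariate Cryab was lower in 12-month knockout than in 12-month wild-type retinas (-1.07 ± 0.19, SE, adjusted p = 0.00561), which in the fit without it was 0.38. Aldh3a1, a gene of the corneal and lens epithelium, had 21.2 CPM in 12-month knockout 2 and at most 3.39 CPM elsewhere, while the corneal keratin Krt12 was at most 0.539 CPM in any library.

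The 4 libraries highest in crystallins did not share a single pattern of lens genes. Mip, the fibre cell water channel, had 242.8 CPM in P28 knockout 2, 69.1 CPM in P28 wild type 3 and 67.7 CPM in 12-month knockout 2, but 4.05 CPM in P28 wild type 2. Cryba1 was nonetheless at 346.4 CPM in P28 wild type 2 and at 360.2 CPM in 12-month knockout 2. Bfsp1 and Bfsp2 did not separate these libraries in that way: they had 4.82 and 3.25 CPM in P28 wild type 2, against 6.66 and 3.69 CPM in 12-month knockout 2. Nid1, a basement membrane protein, had 9.14 CPM in P28 wild type 2, and 173.5, 133.2 and 90.2 CPM in P28 knockout 2, P28 wild type 3 and 12-month knockout 2.

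The estimated share of annotated retained-intron transcripts also differed among the 4 libraries highest in crystallins. Among the 40 annotated transcripts of the members, 7 in 4 genes (Cryaa, Cryab, Cryba1 and Crybb3) are annotated as retaining an intron. Of the summed RPKM of these 4 genes, such transcripts made up 0.213% in P28 wild type 2, against 13.0% in 12-month knockout 2, 4.15% in P28 knockout 2 and 2.86% in P28 wild type 3. Cryab-204 alone, a retained-intron form, took 44.7% of Cryab RPKM in 12-month knockout 2. It was at 0 RPKM in P28 wild type 1 and 2. By group the share at 12 months was 2.91 to 13.0% with the knockout, against 4.33 to 9.05% in the wild type, and at P28 it was 1.63 to 4.15% with the knockout, against 0.213 to 2.86% in the wild type. In the low libraries these shares rest on few reads, and 4.16% of the 31-base words of Cryba1 transcripts recur in transcripts of 873 other genes.

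**Figure D4:**
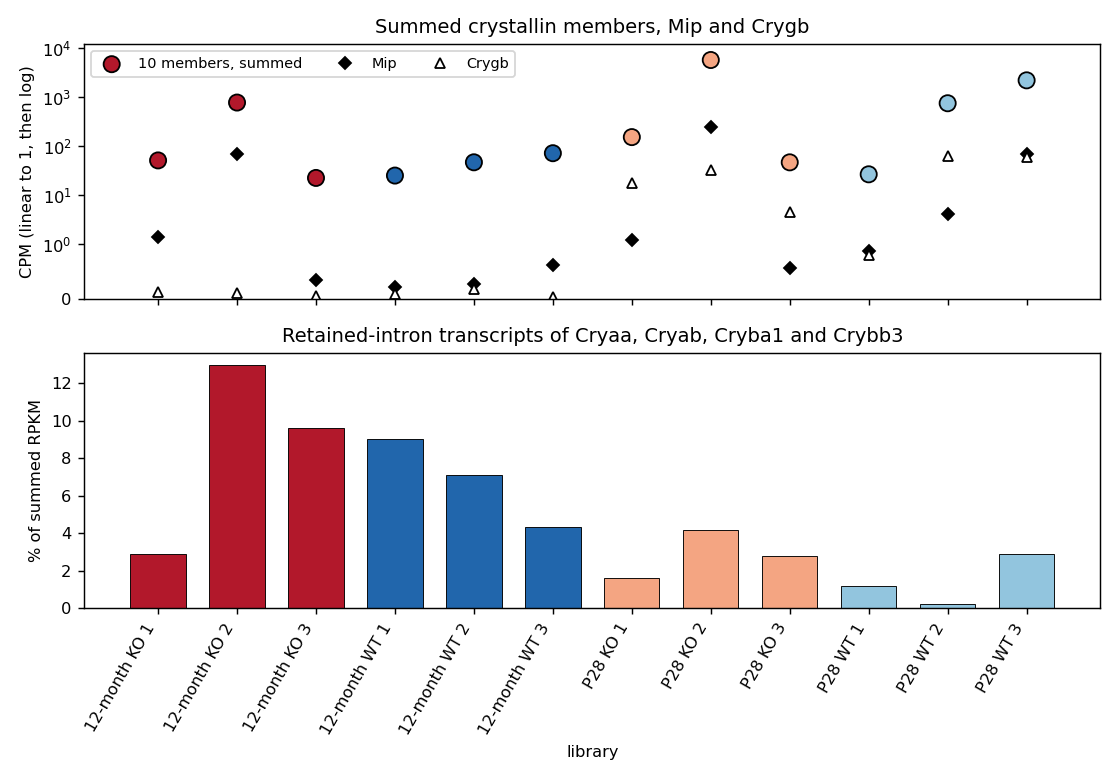
Top, summed CPM of the 10 members (circles, coloured by group), of Mip (diamonds) and of Crygb (triangles) in each library, on an axis linear to 1 and logarithmic above it; bottom, share of retained-intron transcripts in the RPKM of Cryaa, Cryab, Cryba1 and Crybb3. P28 wild type 2 has 745.0 CPM of crystallins but 4.05 CPM of Mip and a retained-intron share of 0.213%.

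Cryaa is made in rodents in 2 coding forms that differ by an inserted exon, the longer being the alpha A insert form. Cryaa-201 (588 coding bases) carries this exon of 69 bases, the second of its 4 exons, and Cryaa-206 (519 coding bases) lacks it. The exon is shown because it is the whole coding difference between them (GENCODE M21, GRCm38, plus strand).
Cryaa insert exon, chr17:31678449-31678517: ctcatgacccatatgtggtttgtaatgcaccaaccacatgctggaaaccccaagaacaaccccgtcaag

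The share of Cryaa-201 in the RPKM of both forms at 12 months was 29.5 to 42.9% with the knockout, against 23.5 to 36.2% in the wild type, and at P28 it was 29.6 to 37.6% with the knockout, against 31.6 to 31.9% in the wild type. The groups overlapped at each age, and the share stayed within this range while the gene itself spanned 385-fold.

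Of 16 transcription factors that regulate crystallin genes in the lens, 13 were tested. In knockout against wild-type retinas limma called 0 at P28, and at 12 months 4 higher and 2 lower. At 12 months Prox1 rose by 0.40, Sox2 by 0.77, Hsf2 by 0.58 and Creb1 by 0.62 on the log2 scale in knockout retinas (limma adjusted p = 0.0393, 0.0457, 0.00346 and 0.00323). Hsf1, the main heat shock factor, fell by 1.44 (adjusted p = 0.00301) and Hsf4, the lens heat shock factor, by 0.71 (adjusted p = 0.00738). These 6 calls stand beside 39.6% of all tested genes. Between ages, Rarb was the 1 factor called in wild-type retinas (0.84 higher at 12 months, adjusted p = 0.00776), against 5.4% of all tested genes, and in knockout retinas 3 were higher and 2 lower, against 27.2% of all tested genes. Foxe3 was at 0 in every library.

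Among the 8 other small heat shock genes, relatives of the alpha crystallins, 3 were tested. In knockout against wild-type retinas limma called 1 of the 3 at P28, against 1.49% of all tested genes, and 2 at 12 months, against 39.6%. Hspb6 was lower in knockout than in wild-type retinas at P28 (by -0.51, limma adjusted p = 0.0167) and at 12 months (by -0.39, adjusted p = 0.00387), and Hspb8 was lower at 12 months (-0.50, adjusted p = 0.0419). Hspb2, the neighbour of Cryab that shares 14.8% of the 31-base words of its transcripts, was at most 0.5 CPM in any library. Of 8 further genes named after crystallins but not of the alpha, beta or gamma lens families, limma called 0 between genotypes at P28, and at 12 months 3 lower and 1 higher, against 39.6% of all tested genes. Cryl1 fell by 0.95 ± 0.19 (SE; adjusted p = 0.00371), Crym, a thyroid hormone binding protein, by 0.67 (adjusted p = 0.0409) and the quinone reductase Cryz by 0.33 (adjusted p = 0.0374) in knockout retinas, and Cryzl1 rose by 0.28 (adjusted p = 0.0169).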

How the data were processed

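The authors deposited gene values as a signal in CPM, scaled with TMM factors, not logged, whose columns do not sum to the same total, and transcript values as RPKM. Kallisto 0.45.0 with Ensembl 102 gave transcript abundances, tximport 1.30.0 summed them to genes and edgeR 4.0.3 gave the TMM scaling, per the labels' design text and the submitters' processing notes; how RPKM was derived is not given in the sources used here. Those notes name a human reference, but the identifiers are mouse: 51903 of 53028 genes were found in GENCODE M21, 51797 with the same chromosome and an equal end.

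Genes with at least 1 CPM in at least 3 of 12 libraries were tested with limma 3.58.1 (trend; R 4.3.3) on log2(CPM + 1), with 4 group means and Benjamini-Hochberg adjustment over all tested genes at 0.05; the script was tested on simulated data. Among nonzero values under 10 reads, whole reads were recovered for 13.3 to 33.5% (within 0.01 reads), so no count test was run. RPKM ratios were described without tests. Correlations used 100000 permutations, two-sided. The 10 members, the gene lists and the rule for named genes (all members, the lists and the genes most alike in pattern) were chosen with earlier results of these data known; 1 gene of the lens list is not reported here on its own.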

Additional observations from a re-analysis of the deposited data

How the results depend on the processing

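With the pseudocount at 5, with no filter on low values, with P28 knockout 2 and P28 wild type 3 left out, and with a sex term (chosen after seeing the data), limma called 0 members between ages in wild-type and 0 in knockout retinas, in place of 1 each (for Crygb, adjusted p of 0.0511 to 0.178). With the lens marker covariate it called 0 in wild-type retinas, and 1 between genotypes at 12 months. Leaving out each replicate in turn gave 0 to 1 in each age comparison. The other alternatives (pseudocount of 0.1, a mean CPM of at least 1, quantile normalization, RPKM, only the groups compared) kept these counts.

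Same-numbered libraries did not pair at P28 (correlations of deviations 0.09, -0.11 and 0.05, against -0.14 to 0.11 for unlike numbers). At 12 months they had 0.10, 0.31 and 0.16, against -0.31 to 0.13 for unlike numbers, and pairing was not settled. With the replicate block limma called 0 members between ages in wild-type retinas (adjusted p = 0.0508) and 1 in knockout retinas.

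Directions of differences that missed the threshold turned, and the cause was not tested. With those 2 libraries left out, Cryba1 between genotypes at P28 was -0.33, and between ages in knockout retinas Cryab was 0.73 and Crybb2 1.34. With the lens marker covariate, at 12 months Cryab between genotypes was -1.07 and Crygb -0.63, and Crybb2 between ages was 0.41 in wild-type and 0.082 in knockout retinas. Crygb between genotypes at 12 months was -0.00015 with a pseudocount of 5 and -0.11 with the sex term. Leaving out each replicate in turn, the genotype difference at P28 ranged from -2.37 to 0.72 for Cryab, -1.80 to 1.72 for Cryba1 and -2.05 to 0.53 for Crygb; at 12 months from -0.80 to 1.04 for Cryab and -0.040 to 0.049 for Crygb; and the age difference in knockout retinas from -2.36 to 0.73 for Cryab and -1.96 to 1.34 for Crybb2. By gene CPM in place of RPKM (chosen after seeing the data), the mean alpha to beta and gamma ratio of P28 knockout libraries was 0.493, against 0.373. Crygb, Crybb1 and other scarce members at 12 months are limited by depth.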
